A study of Homo sapiens with 13 samples.

Results

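The mitochondrially encoded genes are the 37 genes whose symbol starts with MT-. They comprise 13 messenger RNA genes, 2 ribosomal RNA genes and 22 transfer RNA genes, out of 60639 genes in both count tables. They were chosen by name alone, and all 37 were found in both tables. The study sequenced RNA from H9 human embryonic stem cells in which doxycycline switches on NEUROG2, a transcription factor that turns such cells into excitatory neurons, and its title names FGF2 regulation of gene expression as the question. A doxycycline set of 5 libraries, 1 per group, holds untreated cells at day 0, cells kept without doxycycline to day 5 or day 11, and cells kept with 1 µg/ml doxycycline throughout to day 5 or day 11. An FGF2 set of 8 libraries holds 4 groups of 2, and all 4 groups received doxycycline for 6 days. Of these, 1 group was harvested on day 6 without FGF2 and 1 on day 6 after 6 days with FGF2 at the labelled 20 µg/ml. The other two were cultured for a further 6 days without doxycycline, in the absence or presence of FGF2, and harvested on day 12. For the day-12 controls the free-text description puts growth at 6 days before listing periods that add up to 12, and their titles and the days in culture give 12, which was used. Beyond day 0 every culture was kept in E8, a stem cell medium, for 2 days and in 3N medium from then on. Each library came from 1 well, and all cells derive from H9. By title the doxycycline libraries are hES-N1, and in every FGF2-set group replicate 1 is hES-N2G1 and replicate 2 is hES-N2G2, whereas the source name reads hES-N1 throughout. Whether these names mark lines, clones or wells is not stated, so a p-value measures only the spread between these libraries.

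Mitochondrial DNA is a small circle that both of its strands transcribe into long precursors. Most messenger RNAs of the circle are punctuated by transfer RNAs, whose excision releases the messages, which then receive short poly(A) tails inside the organelle. The messages encode core subunits of respiratory complexes I, III and IV and of ATP synthase, whose other subunits are encoded in the nucleus, and neurons depend heavily on this machinery for their energy supply.

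Total counts per library ranged from 28443657 to 47159475 over the 5 doxycycline libraries and from 22802501 to 30014661 over the 8 others. NEUROG2 was at 0.456 to 6.26 CPM (counts scaled to 1e6 reads) in the 3 libraries without doxycycline, at 1018 and 1564 CPM in the 2 with it, at 7544 to 7831 CPM in the 4 day-6 libraries and at 49.3 to 54.7 CPM in the 4 day-12 libraries. The summed level of 8 neuron markers was 77.2 to 349.7 CPM without doxycycline and 9120 to 19964 CPM in all libraries that had received it. The 4 markers of dividing cells summed to 267.5 to 391.5 CPM on day 6 and to 7.04 to 10.3 CPM on day 12, so the day-6 cultures still held markers of dividing cells. The 2 markers of excitatory neurons summed to 381.6 to 616.9 CPM in the FGF2 set and the 3 of inhibitory neurons to at most 1.45 CPM. The 7 pluripotency markers summed to 321.6 to 331.5 CPM on day 6 and 173.4 to 190.7 CPM on day 12. Of 5 markers of heart and skeletal muscle, tissues rich in mitochondria, the summed level was 511.7 to 588.4 CPM on day 6 and 3.89 to 4.19 CPM on day 12. ACTC1, a cardiac actin, made up 522 ± 3.12 CPM (SD, n = 2) of it in the day-6 control. In the doxycycline set the pluripotency markers summed to 4276 CPM at day 0 and 3927 and 1856 CPM in the day-5 and day-11 controls. With doxycycline they were at 586 and 188 CPM on those days. The dividing-cell markers were at 1238 to 1439 CPM without doxycycline and at 51.7 and 21.4 CPM with it. The 3 mesenchyme markers were at 124 CPM at day 0, 774 CPM in the day-5 control and 16.4 to 83.1 CPM in the others. The part of these cell markers in the mitochondrial values was not tested. In these bulk samples fewer cells of a type and less RNA per cell cannot be told apart. Replicates of the day-6 FGF2 group stood apart from each other. Their counts differed by a chi-square of 418 per degree of freedom over the 13 mitochondrial messenger RNAs, against 20.2 to 53.4 in the other groups, and by 19.7 over all genes tested, against 2.95 to 3.32.

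The largest change of any member called between days 6 and 12 was in a transfer RNA, MT-TF, and 4 transfer RNAs that rose are shown first, read 5′ to 3′ from the GENCODE release 29 transcripts on GRCh38. MT-TF, for phenylalanine, lies at chrM:577-647 just before the ribosomal RNA genes on the plus strand. MT-TC, for cysteine, lies at chrM:5761-5826 and MT-TY, for tyrosine, at chrM:5826-5891, both on the minus strand. MT-TE, for glutamate, lies at chrM:14674-14742 on the minus strand. The capital letter in MT-TC and MT-TY is the 1 base that the neighbouring genes share.
MT-TF: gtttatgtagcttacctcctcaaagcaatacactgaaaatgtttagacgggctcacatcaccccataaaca
MT-TC: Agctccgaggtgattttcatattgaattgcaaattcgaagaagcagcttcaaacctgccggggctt
MT-TY: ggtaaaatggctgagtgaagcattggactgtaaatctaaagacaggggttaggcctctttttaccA
MT-TE: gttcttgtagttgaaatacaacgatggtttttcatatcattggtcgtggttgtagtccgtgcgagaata

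The messenger RNA with the largest fall between these days without FGF2 was MT-ATP8 at chrM:8366-8572 on the plus strand, which encodes a small ATP synthase subunit and overlaps MT-ATP6 in another reading frame. Its 207 bases are given whole, with the 46 bases shared with MT-ATP6 in capitals, because a read that reaches into the shared stretch overlaps both genes.
MT-ATP8: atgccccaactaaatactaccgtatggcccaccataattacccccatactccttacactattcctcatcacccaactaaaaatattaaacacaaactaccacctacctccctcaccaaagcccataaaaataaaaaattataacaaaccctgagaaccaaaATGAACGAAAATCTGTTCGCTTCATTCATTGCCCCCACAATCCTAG
MT-ND4L and MT-ND4 likewise share 7 bases, MT-TI and MT-TQ 3 bases, and MT-ATP6 and MT-CO3 1 base. Below, a message stands for 1 messenger RNA gene, and overlapping genes are counted separately. The library kit does not mark strand, so reads from MT-ND6, the only messenger RNA gene on the minus strand, cannot be told apart from antisense RNA at the same place. The same holds for the 8 transfer RNA genes on that strand, among them MT-TC, MT-TY and MT-TE.

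Nuclear copies of mitochondrial DNA, pseudogenes left by old insertions, took very different shares of the reads in the 2 sets. The first 150 bases of MT-CO1, the catalytic subunit of complex IV (chrM:5904-6053, plus strand), and of its copy MTCO1P12 (chr1:631074-631223, plus strand) differ at 1 base, written as a capital. Those of MT-ND4, a complex I subunit (chrM:10760-10909, plus strand), and of its copy MTND4P12 (chr5:134927887-134928036, minus strand) differ at 6.
MT-CO1: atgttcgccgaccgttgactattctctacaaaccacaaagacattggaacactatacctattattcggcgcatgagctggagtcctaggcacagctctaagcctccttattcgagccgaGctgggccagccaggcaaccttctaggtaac
MTCO1P12: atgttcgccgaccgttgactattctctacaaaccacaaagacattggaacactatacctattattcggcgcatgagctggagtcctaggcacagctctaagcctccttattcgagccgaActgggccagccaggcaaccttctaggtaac
MT-ND4: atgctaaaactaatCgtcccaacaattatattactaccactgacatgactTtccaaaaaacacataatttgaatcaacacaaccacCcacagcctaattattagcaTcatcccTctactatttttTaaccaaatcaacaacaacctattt
MTND4P12: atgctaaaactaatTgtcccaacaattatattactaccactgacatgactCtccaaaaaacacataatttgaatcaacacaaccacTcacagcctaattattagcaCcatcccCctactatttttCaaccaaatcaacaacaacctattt
Over the full aligned length the identity was 98.7% for MT-CO1 with MTCO1P12 and 95.7% for MT-ND4 with MTND4P12.

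Copies of MT-CO1 held 48.4% of the counts of the gene and its copies together in the doxycycline set and 2.94% in the FGF2 set. The same share was 49.8% and 5.91% for MT-ND2, 56.3% and 15.9% for MT-ATP6, 30.4% and 1.22% for MT-CO2, and 27.6% and 0.847% for MT-CO3. It was 23.4% and 2.87% for MT-ATP8, and 17.9% and 0.0300% for MT-ND1. MT-ND4 differed from these genes, with 10.7% in the doxycycline set and 10.8% in the FGF2 set. For MT-ND3, MT-ND4L, MT-ND5, MT-ND6 and MT-CYB the copies held at most 1.68% in either set. In all, 401 copies were in the tables, 36 reached 1 CPM in a library, and 7 of those 36 lie on chromosome 1. Across the 13 messenger RNA genes, the share of a gene's 50-base windows found exactly in a copy correlated with the copies' share of counts in the doxycycline set (r = 0.93, rho = 0.91). In the FGF2 set the same values were r = 0.42 and rho = 0.62. Both are descriptions over genes that share libraries. Levels of genes with copies are therefore compared only within a set. The settings that counted multiply mapping reads are not given in the sources used here.

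**Figure D1:**
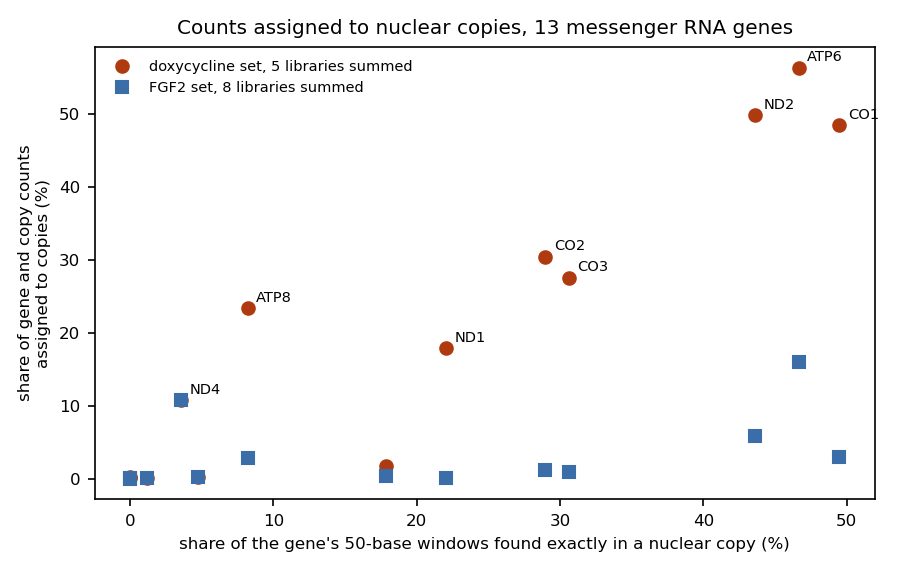
Each point is 1 of the 13 mitochondrial messenger RNA genes. The x axis gives the percentage of its 50-base windows that occur exactly in a nuclear copy, and the y axis gives the percentage of gene and copy counts that were assigned to copies, summed over the 5 libraries of the doxycycline set (circles) or the 8 of the FGF2 set (squares). MT-CO1, at 48.4% and 2.94%, and MT-ATP6, at 56.3% and 15.9%, differ between the sets, while the points of MT-ND4 coincide at 10.7% and 10.8%.

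The 37 genes held 7.17% of all counts at day 0, 15.03% in the day-5 control, 4.29% in day-5 doxycycline cells, 4.40% in the day-11 control and 5.12% in day-11 doxycycline cells. The day-5 control stood far above the other libraries of its set. With the nuclear copies added, these shares were 9.71%, 20.8%, 5.80%, 5.93% and 6.48%, and the order of the libraries was the same. In the FGF2 set the genes held 5.11% ± 0.229 (SD, n = 2) in the day-6 control, 5.24% ± 0.641 in day-6 FGF2 cells, 3.51% ± 0.144 in the day-12 control and 3.81% ± 0.0183 in day-12 FGF2 cells. The 2 day-6 FGF2 libraries, at 4.79% and 5.69%, enclosed both day-6 controls, and every day-12 library was below every day-6 library. Ribosomal RNA made up 0.606% to 0.832% of all counts in these 8 libraries, and transfer RNA 0.00714% to 0.0122%.

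**Figure D2:**
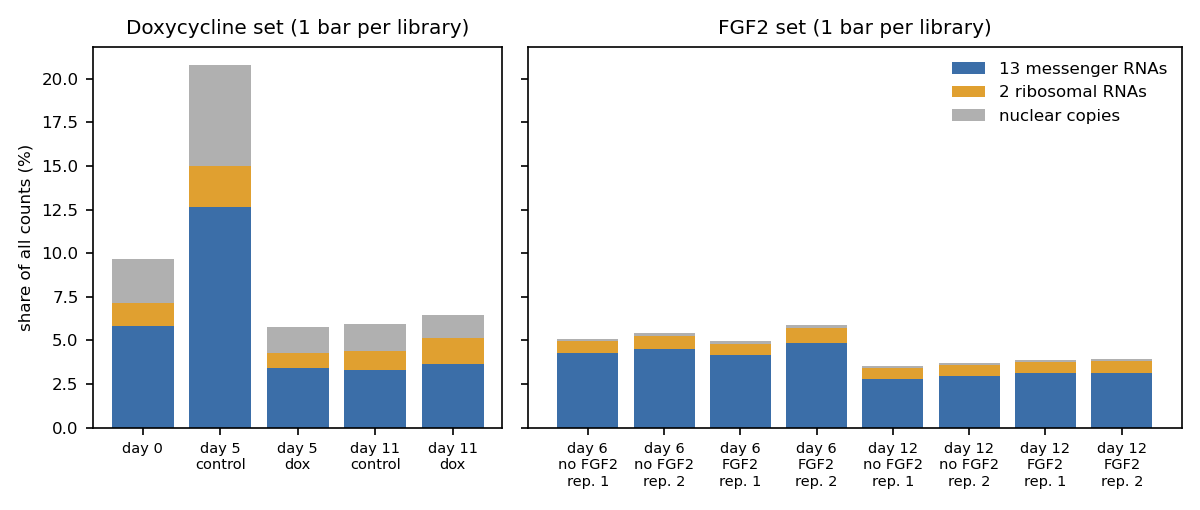
Stacked bars give, for each of the 13 libraries, the percentage of all counts in the 13 mitochondrial messenger RNAs, the 2 ribosomal RNAs and the nuclear copies. The day-5 control library reaches 20.8% with copies, and the 4 day-12 libraries are below the 4 day-6 libraries. Transfer RNAs are too few to be seen and are not drawn.

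Per kilobase, the messenger RNAs spanned 6.08-fold in the day-6 control and 4.60-fold in the day-12 control. The complex IV subunits led on both days. On day 6 the mean level was 9291 CPM per kb for MT-CO2, 8583 for MT-CO3 and 6272 for MT-CO1, and the lowest was MT-ND6 with 1528. On day 12 MT-CO1 led with 4626 CPM per kb, followed by MT-CO3 with 4094 and MT-CO2 with 3713, and MT-ATP8 was lowest with 1005.

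Between day 6 and day 12 without FGF2, when doxycycline was withdrawn and the dividing-cell markers fell, most mitochondrial messages fell as a share of all RNA. Of the 31 members with enough counts to test (13 messenger RNAs, 2 ribosomal RNAs and 16 transfer RNAs), 7 rose and 13 fell by edgeR's quasi-likelihood test at an adjusted p under 0.05. Over all 20142 genes tested 31.7% rose and 32.3% fell, so the members as a whole were called about as often as genes at large. Their 6 untested companions, MT-TQ, MT-TW, MT-TA, MT-TN, MT-TD and MT-TK, had at most 7 counts in any library, and MT-TN had 0 in all, which allows up to 3 counts per library. By kind, 11 of 13 messenger RNAs fell, with a median log2 change of -0.58 against -0.0045 over all genes. The number that rose was 3 without replicate 1 of the day-6 control or replicate 2 of the day-12 control, and 4 by DESeq2.

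The largest falls were in a run of neighbouring genes for ATP synthase and complex IV. MT-ATP8 was at 541 and 615 CPM in the day-6 controls and at 199 and 217 CPM in the day-12 controls, a log2 change of -1.47 (SE 0.117, adjusted p = 2.54e-08). MT-ATP6, at chrM:8527-9207, encodes the proton channel subunit of ATP synthase and went from 2763 and 2981 CPM to 1054 and 1120 CPM, a log2 change of -1.40. For MT-CO2 (chrM:7586-8269), a complex IV subunit, the controls had 5997 and 6713 CPM on day 6 and 2477 and 2602 CPM on day 12, a log2 change of -1.32. In these 3 genes the days did not overlap, as in 42.5% of all genes for those lower and 41.5% for those higher. MT-CO3 (chrM:9207-9990), from the same complex, fell from 6491 and 6967 CPM to 3054 and 3365 CPM, with a log2 change of -1.07. MT-CYB (chrM:14747-15887), the only complex III subunit encoded in mitochondria, fell from 5050 and 5345 CPM to 2471 and 2677 CPM, with a log2 change of -1.01. MT-CO1 fell less, from 9565 and 9778 CPM to 6891 and 7375 CPM, a log2 change of -0.44 (SE 0.0678, adjusted p = 4.01e-05).

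Messages for complex I, the entry point of electrons from NADH, had log2 changes from -0.67 to 0.22. MT-ND1, MT-ND2 and MT-ND3 had log2 changes of -0.67, -0.58 and -0.56. MT-ND4 fell from 4857 and 4983 CPM to 3916 and 4057 CPM (log2 -0.30, adjusted p = 0.00127), and MT-ND4L had a log2 change of -0.23 (adjusted p = 0.00651), a call lost without replicate 2 of the day-6 control (adjusted p = 0.0623) or replicate 1 of the day-12 control (0.0595). MT-ND5 (chrM:12337-14148) had 2785 and 2837 CPM in the day-6 controls against 3044 and 3106 CPM in the day-12 controls, a log2 change of 0.13 that did not pass (SE 0.0631, adjusted p = 0.0849) but passed without either day-6 FGF2 library (adjusted p = 0.00515 and 0.00469). MT-ND6 (chrM:14149-14673), on the other strand, rose from 789 and 815 CPM to 939 and 924 CPM (log2 0.22, SE 0.0732, adjusted p = 0.0175). That call was lost without any 1 of the 4 control libraries, with adjusted p from 0.0574 to 0.134 and log2 changes from 0.18 to 0.24. The log2 changes of this complex's messages thus differed in sign as well as in size, but neither MT-ND5 nor MT-ND6 passed in every fit.

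The ribosomal RNAs of the mitochondrial ribosome went opposite ways. MT-RNR1, the small subunit RNA at chrM:648-1601, was at 448 and 586 CPM in the day-6 controls and at 682 and 754 CPM in the day-12 controls, a log2 change of 0.47 (SE 0.143, adjusted p = 0.00927). MT-RNR2, the large subunit RNA at chrM:1671-3229, was at 5999 and 7022 CPM and then at 5239 and 5372 CPM, a log2 change of -0.30 (SE 0.107, adjusted p = 0.0254). Both calls depended on single libraries. MT-RNR1 had an adjusted p of 0.158 without replicate 1 of the day-6 control and 0.0737 without replicate 2 of the day-12 control, and 0.0703 by DESeq2. MT-RNR2 had one of 0.253 without replicate 2 of the day-6 control, and of 0.0894 and 0.0684 without replicate 1 or 2 of the day-12 control.

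Among the 16 transfer RNAs tested, 5 rose and 1 fell, beside 31.7% and 32.3% of all genes, with a median log2 change of 0.34. Rises were thus called about as often as in genes at large. MT-TF went from 2.97 and 3.52 CPM on day 6 to 10.3 and 12.5 CPM on day 12, a log2 change of 1.81 (SE 0.183, adjusted p = 4.36e-07). MT-TC went from 10.9 and 11.8 CPM to 20.2 and 22.02 CPM (log2 0.90), and its neighbour MT-TY from 22.8 and 25.4 CPM to 30.6 and 38.3 CPM (log2 0.52). The days did not overlap in these 3 transfer RNAs. Of the 16 tested, 7 were higher without overlap and 3 lower, beside 41.5% and 42.5% of all genes. MT-TE rose by a log2 change of 0.67 (adjusted p = 0.0252), a call lost without either day-6 control or replicate 2 of the day-12 control. MT-TG for glycine (log2 1.37, adjusted p = 0.0435) and MT-TS1 for serine (log2 -0.98, adjusted p = 0.0416) were called at under 1.2 CPM in every control library, and leaving out any 1 control library ended both calls. MT-TP, for proline, the second most abundant transfer RNA on day 12, had a log2 change of 0.05 that did not pass. The remaining 9, namely MT-TV, MT-TL1, MT-TI, MT-TM, MT-TR, MT-TH, MT-TS2, MT-TL2 and MT-TT, did not pass either and had log2 changes from -1.19 to 0.74. In these tables mature transfer RNA, longer precursors that contain it and antisense RNA at the same place cannot be told apart.

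With FGF2 the same days could be compared in 4 other libraries, since the day-6 and day-12 FGF2 groups share no library with the controls. These groups had FGF2 in different windows, the first 6 days with doxycycline or the last 6 days after its withdrawal. They also share the model's estimate of the spread with the controls. In this comparison 7 members rose and 11 fell, beside 32.6% and 32.9% of all genes tested. Without replicate 1 of the day-6 FGF2 group 6 rose and 12 fell, and the numbers were 8 and 9 without its replicate 2. Called lower in both comparisons were 11 members, called higher in both were 5, and 0 were called in opposite directions. Of all 20142 genes 28.7% were called lower in both, 28.2% higher in both and 0.0993% in opposite directions. MT-ATP8 had a log2 change of -1.33, MT-ATP6 of -1.36, MT-CO2 of -1.22, MT-CO3 of -1.04 and MT-CYB of -0.86. Without replicate 1 of the day-6 FGF2 group these 5 changes were, in the same order, -1.51, -1.51, -1.41, -1.21 and -1.01. Without its replicate 2 they were -1.14, -1.20, -1.004, -0.85 and -0.71, and each passed in both fits. MT-ND5 rose here, from 2650 and 2522 CPM to 3406 and 3261 CPM (log2 0.37, SE 0.0631, adjusted p = 0.000112), and MT-ND6 rose by a log2 change of 0.30 (adjusted p = 0.00198). MT-TF again rose the most of the members, by a log2 change of 1.88 (adjusted p = 1.74e-07). Without replicate 1 or 2 of the day-6 FGF2 group the changes were 0.40 and 0.32 for MT-ND5, 0.21 and 0.39 for MT-ND6, and 1.68 and 2.09 for MT-TF, and these passed too. MT-ND4L, with a log2 change of -0.03, and MT-RNR1, with 0.28 (adjusted p = 0.0995), did not pass, though MT-RNR1 rose without replicate 2 of the day-6 FGF2 group (log2 0.58). MT-ND4 fell (log2 -0.18, adjusted p = 0.0366), a call lost without replicate 2 of the day-6 FGF2 group (0.0905), either day-12 FGF2 library (0.106 and 0.179) or either day-12 control (0.0540 and 0.0561). MT-TL1, for leucine, passed only in the cells with FGF2 (log2 0.49, adjusted p = 0.0229, against 0.41 and adjusted p = 0.0571 without), and not without replicate 1 of the day-6 or of the day-12 FGF2 group (0.0953 and 0.171). The difference between the comparisons was tested as late minus early FGF2 effect and passed for 0 members. MT-RNR2 was at -0.29 (adjusted p = 0.0267). It did not pass without replicate 2 of the day-6 FGF2 group (log2 -0.06, adjusted p = 0.350) or without either day-12 FGF2 library (0.111 and 0.0764).

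Counted against the sum of the 13 mitochondrial messages in place of all RNA, a scale on which the median gene of all 20142 moved by 0.67 without FGF2 and 0.56 with it, the members split by gene. MT-ATP8, MT-ATP6, MT-CO2, MT-CO3 and MT-CYB still fell, by log2 changes from -0.80 to -0.34 without FGF2, and MT-ND1, MT-ND2 and MT-ND3 were at 0.01, 0.09 and 0.11 and did not pass. MT-CO1 (0.23), MT-ND4 (0.37), MT-ND4L (0.44), MT-ND5 (0.80) and MT-ND6 (0.89) rose on this scale, as did MT-RNR1 (1.15) and MT-RNR2 (0.38). Among the messenger and ribosomal RNAs, 7 (MT-ND1, MT-ND2, MT-ND3, MT-CO1, MT-ND4, MT-ND4L and MT-RNR2) changed sign between the scales, also with FGF2. As a share of the 13 messages, MT-CO2 was 13.8% and 14.6% in the day-6 controls and 9.08% and 8.99% in the day-12 controls. MT-ND5 was 6.39% and 6.16% and then 11.2% and 10.7%. This scale was chosen after the data had been seen, and it shows unequal change among the messages only.

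**Figure D3:**
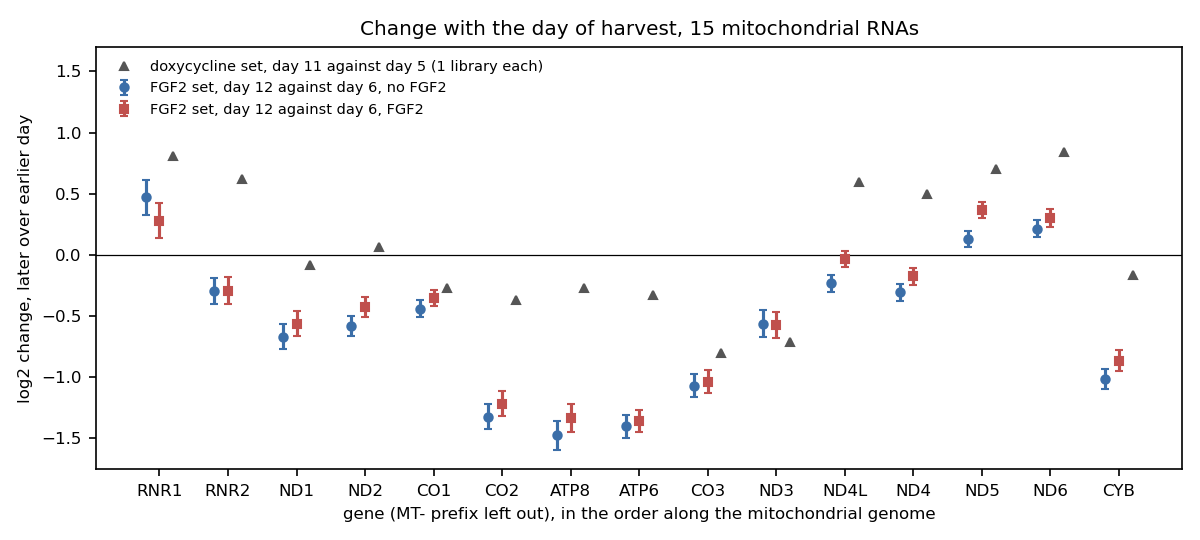
Log2 change from the earlier to the later day (y axis) for the 13 messenger RNAs and 2 ribosomal RNAs in genome order (x axis). Circles and squares are edgeR estimates with bars of 1 standard error from 2 libraries per group, without and with FGF2, and triangles are ratios of 1 library to another in the doxycycline set. The genes from MT-CO2 to MT-CO3 lie lowest in the FGF2 set, at -1.47 to -1.04, and MT-ND5 and MT-ND6 lie above 0 in all 3 comparisons; relative to the 13 messages alone, MT-ND1, MT-ND2, MT-ND3, MT-CO1, MT-ND4, MT-ND4L and MT-RNR2 would also lie above 0 in the FGF2 set.

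Under continued doxycycline the day-11 and day-5 libraries, 1 of each and none of them in the FGF2 set, gave no member past 2-fold among the 18 with at least 10 CPM. Over all 11465 genes at that level, 3.49% were at least 2-fold higher and 4.44% lower. MT-ND6 went from 1138 CPM to 2042 CPM, a log2 ratio of 0.84, and MT-ND5 at 3402 and 5527 CPM, a log2 ratio of 0.70. MT-RNR1 had a log2 ratio of 0.81 and MT-RNR2 of 0.62. MT-CO3 was at 4781 and 2747 CPM (-0.80) and MT-ND3 at 719 and 439 CPM (-0.71). Over the 13 messages the median log2 ratio was -0.17 on TMM-scaled counts and 0.09 on the authors' normalized values. MT-ATP8, MT-ATP6 and MT-CO2, with the largest falls in the FGF2 set, had log2 ratios of -0.27, -0.33 and -0.37. MT-ND2 (0.06), MT-ND4L (0.59) and MT-ND4 (0.50) were above 0 here and below 0 in the FGF2 set, as was MT-RNR2. Set beside the FGF2 set without FGF2, the log2 values of the 13 messages had the same sign in 10 genes, with r = 0.76 and rho = 0.72. With FGF2 r was 0.81 and rho 0.80. These are descriptions over 13 genes of 1 genome, and the sets differ in day, in the withdrawal of doxycycline, in sequencing run and, by their titles, in the name of the cells.

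Doxycycline against its control on day 5 gave the largest median log2 change of the messages in the series, in either direction. It had 1 library on each side and hence no test. All 13 messages were at least 2-fold lower, and so were 16 of the 18 members with at least 10 CPM, where 21.1% of all 12895 genes were at least 2-fold lower. The median log2 ratio of the messages was -1.91, against 0.23 for all genes. MT-ATP8 was at 1445 CPM in the control and 276 CPM with doxycycline (log2 -2.38). MT-CO2 was at 17264 and 4603 CPM (log2 -1.91), MT-ND4 at 21860 and 5384 CPM (log2 -2.02) and MT-CYB at 8914 and 4114 CPM (log2 -1.12). The 2 members that missed 2-fold were MT-RNR1 (log2 -0.94) and MT-TP (log2 -0.85). These ratios rest on the day-5 control, the library that stood above the rest. Its markers of dividing, pluripotent and mesenchymal cells were also far above those of the day-5 doxycycline cells.

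That control was also compared with day 0, from which it differs in days of culture and in medium. There 14 of 18 members were at least 2-fold higher on day 5, beside 5.62% of all genes, with a median log2 ratio of 1.22 for the messages. In the day-11 control, 10 of 18 were at least 2-fold lower than at day 0, beside 8.41% of all genes, with a median of -1.08. MT-CO1 was thus at 11598 CPM at day 0, 27032 CPM in the day-5 control and 7592 CPM in the day-11 control. MT-CO2 followed the same order with 5772, 17264 and 2552 CPM. Comparisons with day 0 share the day-0 library, and each control library also enters a comparison with doxycycline, so their ratios are not independent.

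On day 11 the messages of doxycycline cells had ratios to their control on both sides of 1, with 10 of the 13 above and 3 below. Their median log2 ratio was 0.44 on TMM-scaled counts, 0.13 on library totals and 0.05 on the authors' normalized values, and 3 members were at least 2-fold higher, beside 24.6% of all genes, with 0 at least 2-fold lower, beside 21.2%. Those 3 were MT-ND6, at 596 CPM in the control and 2042 CPM with doxycycline (log2 1.78), MT-RNR1, at 854 and 2209 CPM (1.37), and MT-ND5, at 2243 and 5527 CPM (1.30). MT-CO3, at 4119 and 2747 CPM, had the lowest ratio (-0.58). Among the messages of complex I the range ran from -0.21 for MT-ND3 to 1.78 for MT-ND6. MT-ND6 was 5.26% of the counts of the 13 messages in day-11 doxycycline cells and 2.09% to 2.92% in the other 4 libraries of the set, where counts given to copies are missing from the total.

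**Figure D4:**
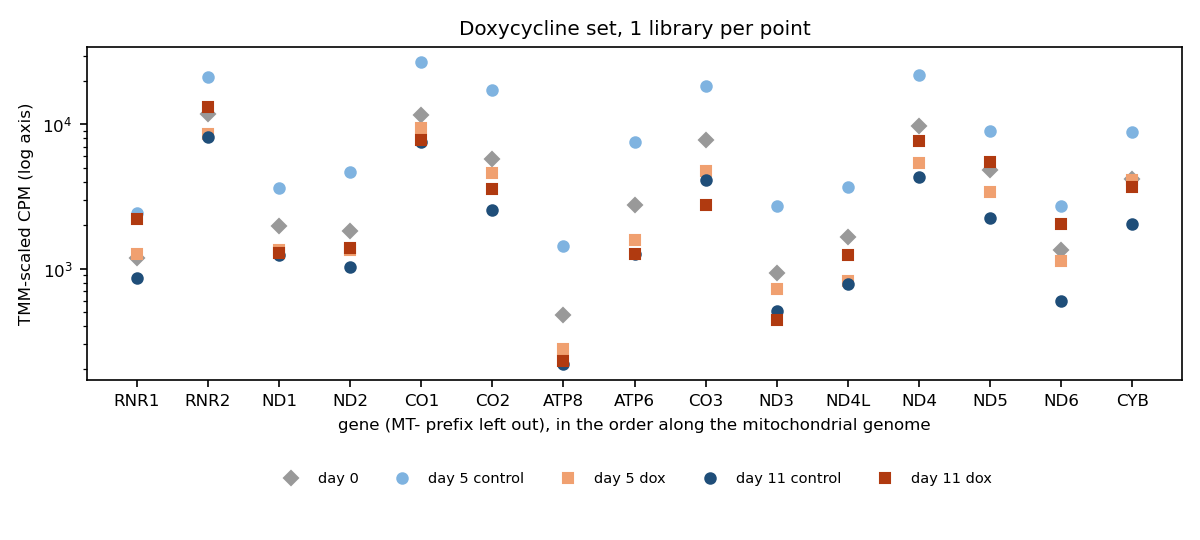
TMM-scaled CPM on a log axis for the 13 messenger RNAs and 2 ribosomal RNAs in genome order, 1 point per library of the doxycycline set. The day-5 control (light circles) lies highest for each gene, with MT-CO1 at 27032 CPM. On day 11 doxycycline cells (dark squares) lie above their control (dark circles) at MT-ND5 and MT-ND6 and below it at MT-CO3.

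FGF2 during the first 6 days gave no call in any gene. Of 31 members, 0 passed, beside 0% of all 20142 genes by edgeR. At an unadjusted p under 0.05 there were 658 genes and 0 members, and DESeq2 and limma voom also called 0. The log2 changes of the messages ran from -0.12 for MT-ND5 to 0.14 for MT-ND3. MT-CO3 was at 6491 and 6967 CPM in the controls and at 6384 and 8184 CPM with FGF2, and MT-ND5 at 2785 and 2837 CPM and at 2650 and 2522 CPM. Without replicate 1 of the FGF2 group, 9 members rose and MT-ND5 fell, where 1172 of 21062 genes tested rose and 1351 fell (MT-ND5 log2 -0.15, adjusted p = 0.0299), with MT-RNR1 the highest at a log2 change of 0.42 (adjusted p = 0.00256). A single library then stands for the group and is taken to vary like the others.

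FGF2 in the last 6 days went with slightly higher mitochondrial messages, and whether they passed depended on the libraries used to estimate the spread. In the fit of all 8 libraries 0 of 31 members passed, beside 2.17% of all genes, and 4 had an unadjusted p under 0.05. DESeq2 and limma voom on the same 8 libraries called 0 as well. All 13 messages had log2 changes above 0 relative to all RNA, from 0.10 to 0.22 with a median of 0.12, against 0 over all genes; relative to the sum of the messages they ran from -0.05 to 0.07. The libraries of the groups did not overlap in 11 of the 13, all higher with FGF2, where 23.5% of all genes were higher without overlap. MT-CYB was at 2471 and 2677 CPM without FGF2 and at 3000 and 2985 CPM with it, a log2 change of 0.22 (SE 0.0845, adjusted p = 0.332). MT-CO2 was at 2477 and 2602 CPM and at 2863 and 2943 CPM (log2 0.19, adjusted p = 0.535), and MT-ND2 at 1086 and 1155 CPM and at 1254 and 1294 CPM (log2 0.19, adjusted p = 0.409). In each of these the higher control was below the lower FGF2 library. MT-ND4 was at 3916 and 4057 CPM without and at 4516 and 4405 CPM with FGF2 (log2 0.16).

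Leaving out either day-6 FGF2 library, neither of which belongs to this comparison, gave calls for MT-ND2, MT-CO2, MT-CO3, MT-ND4 and MT-CYB, with MT-CYB at an adjusted p of 0.000798 or 0.000596. Of all genes 758 of 21062 were then higher and 413 lower without replicate 1, and 768 of 21032 higher and 420 lower without replicate 2. A fit of the 4 day-12 libraries alone, added after the data had been seen, called 8 of the 29 members it tested, all higher, and of all genes 812 as higher and 526 as lower. Those 8 were MT-CYB, MT-CO2, MT-ND4, MT-ND2, MT-CO3, MT-ND5, MT-CO1 and MT-RNR2, with log2 changes from 0.09 to 0.22. In the authors' deposited tables for late FGF2, DESeq2 gave an adjusted p under 0.05 for 4 of 25 members, beside 7.25% of 11499 genes with a value, and limma for 10 of 25, beside 7.38% of 17705, and neither did for any member with early FGF2. The log2 values of the messages in the authors' deposited tables ran from 0.09 to 0.21 for late FGF2. MT-RNR1 had a log2 change of -0.03 with late FGF2 and did not pass in the fit of all libraries or of the day-12 libraries. The difference between late and early FGF2 effects passed for 0 members, beside 0.73% of all genes, and was largest among the messages in MT-ND5 (log2 0.24, adjusted p = 0.521). Without replicate 2 of the day-6 FGF2 group 5 members passed as higher for that difference, beside 254 higher and 99 lower of 21032 genes. Without replicate 1 MT-ND5 passed as higher and MT-RNR1 as lower, beside 910 higher and 435 lower of 21062 genes.

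**Figure D5:**
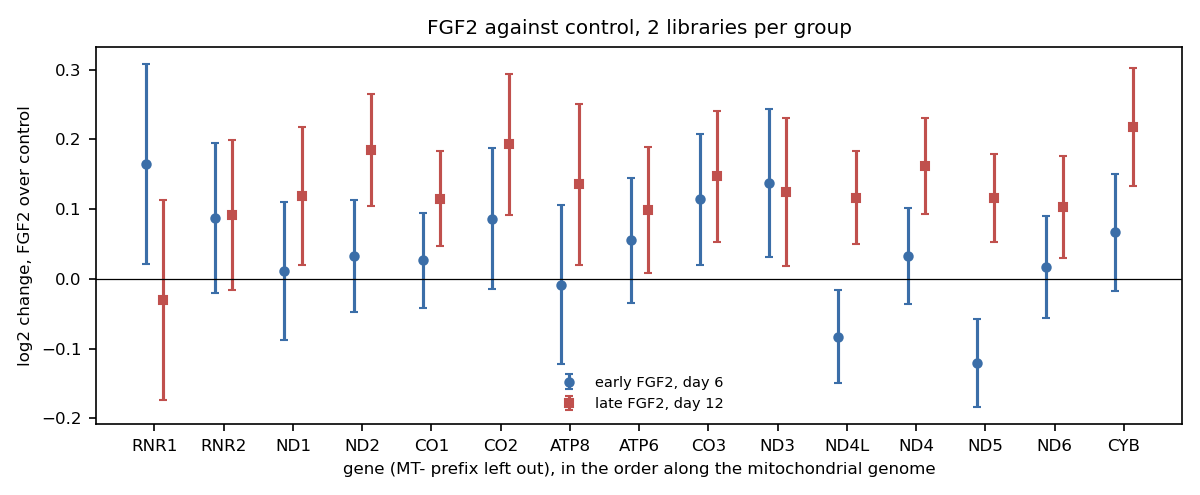
Log2 change of FGF2 over control (y axis) for 15 mitochondrial RNAs in genome order, as edgeR estimates with bars of 1 standard error, 2 libraries per group. Late FGF2 (squares) gives values from 0.10 to 0.22 for the 13 messages, which become -0.05 to 0.07 relative to their own sum, and early FGF2 (circles) gives values on both sides of 0.

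Most nuclear genes called for the same respiratory complexes fell from day 6 to day 12 without FGF2, where 31.7% of all genes rose and 32.3% fell. Of 37 tested for complex I 4 rose and 20 fell, with a median log2 change of -0.27, and NDUFB10, an accessory subunit, fell by 0.92 on the log2 scale. For complex III 0 of 9 rose and 5 fell, with a median of -0.25. For complex IV 0 of 12 rose and 7 fell, with a median of -0.28, and COX6B1 fell by 0.68 on the log2 scale. For ATP synthase 2 of 18 rose and 11 fell, with a median of -0.27, and ATP5B, its catalytic subunit, went from 1186 ± 0.629 to 843 ± 13.2 CPM (SD, n = 2; log2 -0.49). Of 77 genes for proteins of the mitochondrial ribosome 51 fell and 3 rose, with a median of -0.41. On day 5 of the doxycycline set the nuclear subunits had ratios opposite in sign to those of the mitochondrial messages. Their median log2 ratio with doxycycline against control was 0.70 for complex I, 0.49 for complex III, 0.58 for complex IV and 0.65 for ATP synthase, where the mitochondrial messages had -1.91. All these ratios rest on the single day-5 control, the library that stood above the rest. On day 11 the signs were the same. The nuclear medians were 0.46, 0.37, 0.58 and 0.45 in that order, and the mitochondrial messages had 0.44. With late FGF2 0 genes passed in any of these 4 lists, beside 2.17% of all genes. At so low a share, 0 calls in lists of this length says little about them.

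Genes that make and process mitochondrial RNA were counted over the same days without FGF2, against the same 31.7% of all genes higher and 32.3% lower. Of 10 for transcription 0 rose and 3 fell, among them TFB2M, a transcription factor of the organelle (log2 -0.70, adjusted p = 0.00114), and MTERF3, a repressor of its transcription (log2 -0.89). Of 25 for RNA processing and stability 5 rose and 12 fell. The 12 that fell included HSD17B10 (log2 -1.27) and ELAC2 (log2 -0.63), which act at the 5′ and 3′ ends of the transfer RNAs. SUPV3L1 (log2 -0.72), a helicase of RNA decay, and GRSF1 (log2 -0.54), a protein of mitochondrial RNA granules, fell too. The 5 that rose are not named here. For DNA maintenance 2 of 17 rose and 9 fell, with TOP1MT, the mitochondrial topoisomerase, at -1.57. Of 17 regulators of mitochondrial content 5 rose and 6 fell, shares near those of all genes. ESRRA, a nuclear receptor for respiratory genes, went from 43.9 ± 0.257 to 11.3 ± 0.968 CPM (log2 -1.96), and its coactivator PPARGC1A had a log2 change of -0.92. PRKAA2, an energy-sensing kinase subunit, rose (log2 1.94), as did SIRT3, a mitochondrial deacetylase (log2 0.74).

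Of 22 genes of the mitochondrial stress list 17 fell and 0 rose without FGF2, beside 32.3% and 31.7% of all genes. PCK2, which makes phosphoenolpyruvate in mitochondria, went from 77.4 ± 0.803 to 4.90 ± 0.175 CPM (log2 -3.98), and PHGDH, the first enzyme of serine synthesis, had a log2 change of -2.66. SHMT2 (-1.44) and MTHFD2 (-1.54), enzymes of mitochondrial folate metabolism, also fell. With late FGF2, which called 2.17% of all genes in either direction, MTHFD2 was the only 1 of these 22 that passed. It was at 24.6 ± 0.577 CPM without and 38.6 ± 3.49 CPM with FGF2 (log2 0.65, adjusted p = 0.0018). Among the 17 regulators MYC (log2 1.53) and ESRRG, a nuclear receptor (log2 0.74), rose with late FGF2, beside the same 2.17% of all genes. The other 15 did not pass. A list of nuclear RNAs classed as without a poly(A) tail was also counted. Whether its members lacked a tail in these cells was not tested. Of 7 tested between the days without FGF2 1 rose, HIST1H2BD (log2 1.45), and 2 fell. Their summed level over 23 genes was 13.1 and 13.2 CPM in the day-6 controls and 18.9 and 15.9 CPM in the day-12 controls. The part of carried-over untailed RNA in the transfer RNA values was not tested.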

How the data were processed

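RNA was sequenced as 50-base single-end reads from unstranded TruSeq libraries, per the labels' protocols. The authors counted reads per gene on GRCh38 with Subread and featureCounts 1.5.0, per the submitters' processing notes, and deposited raw counts for each set. Handling of multiply mapping reads and the GENCODE release are not given in the sources used here. Normalized signal values deposited by the authors for the 5 doxycycline libraries served only as an alternative. For FGF2 the authors deposited log2 fold changes and p-values per gene. The 16 per-sample columns in those tables were not used.

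All 8 libraries of the FGF2 set entered 1 edgeR 4.0.16 model (R 4.3.3, filterByExpr, TMM, 1 mean per group, quasi-likelihood test, two-sided, Benjamini-Hochberg over 20142 genes, threshold 0.05). The script was tested on simulated data. DESeq2 1.42.0 and limma 3.58.1 were alternatives. Levels are TMM-scaled CPM. In the doxycycline set, with no replicates, log2 ratios of CPM plus 1 were counted past 2-fold where either library had at least 10 CPM. Nuclear copies were found by GENCODE 29 symbol, and their shared 50-base windows by exact match to its transcripts.

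Members were named by rule: all messenger and ribosomal RNAs, transfer RNAs that passed the low-count filter, and in each nuclear list up to 4 called genes of smallest p with a mean of at least 5 CPM, not all of them given. The members and lists were chosen with earlier results of these data known. Alternatives changed scaling, test, filter, replicate block, the treatment of copies and the libraries included. Deviations of same-numbered libraries correlated only weakly over all genes, so the main fit has no block, although their titles share a name.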

Additional observations from a re-analysis of the deposited data

How the results depend on the processing

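Values in the doxycycline set have no replicates, and low counts limit what can be said of most transfer RNAs. Leaving out 1 library at a time gave 0 to 9 members higher and 0 to 1 lower for early FGF2, and 0 to 5 higher for late FGF2. For day 12 against day 6 it gave 3 to 8 higher and 10 to 13 lower without FGF2, and 6 to 8 higher and 9 to 12 lower with it. For the difference of the FGF2 effects it gave 0 to 5 higher and 0 to 1 lower. Without a filter late FGF2 called 2 members, beside 461 genes higher and 195 lower of 38116. With only the day-12 libraries it called 8, beside 812 genes higher and 526 lower of 18870. DESeq2 called 4 members higher on day 12 without FGF2, beside 5958 of 20142 genes. Relative to the 13 messages, a scale added after seeing the data, 15 rose and 5 fell without FGF2, and 14 rose and 5 fell with it, beside 11616 and 2493 of all 20142 genes without and 10727 and 2827 with it. Among the messenger and ribosomal RNAs, the signs that changed on that scale were those of MT-ND1 (0.0073 without FGF2, 0.019 with it), MT-ND2 (0.094, 0.15), MT-CO1 (0.23, 0.22), MT-ND3 (0.11, 0.0082), MT-ND4L (0.44, 0.53), MT-ND4 (0.37, 0.40) and MT-RNR2 (0.38, 0.29). Some transfer RNAs changed sign too. The cause of the other moves was not tested. With the replicate number as a block, 7 members rose and 13 fell without FGF2, 8 rose and 11 fell with it, and 0 passed elsewhere. Over all genes, late FGF2 called 435 higher and 163 lower with the block, against 329 and 108 in the main fit. Deviations of same-numbered libraries correlated at 0.011 to 0.22 over all genes and at -0.30 to 0.33 over the members. Their titles share a name, and such weak correlation does not settle whether the libraries are paired.

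For doxycycline against control on day 5, the median of the messages was -2.07 on library totals, -2.13 on the authors' normalized values, -1.95 with the mitochondrial genes left out of the scaling and -1.92 with copies added. On day 11 it was 0.13, 0.055 and 0.36 under the first 3 of these. For the control on day 5 against day 0 it was 1.12 on library totals and 1.31 on the authors' values. For day 11 against day 0 it was -0.93 on library totals, -0.94 on the authors' values and -1.04 with the mitochondrial genes left out. For doxycycline day 11 against day 5 it was -0.063 on library totals and 0.090 on the authors' values, a change of sign. At 4-fold, 4 members were lower on day 5 with doxycycline, and 0 passed in the other 3 comparisons that had members past 2-fold. On library totals 6 members were lower in the day-11 control than at day 0. At 1 CPM or more, 1 member was at least 2-fold lower with doxycycline on day 11. Shares of all genes at 4-fold, on library totals and at 1 CPM are not given here. These counts therefore show only how the members depend on the setting.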
